A study of Mus musculus with 24 samples.

Results

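The response of the left ventricle (LV) to angiotensin II (AngII) was measured in old female mice that kept their ovaries. Ctrl + AngII libraries were set against Ctrl libraries, 4 in each group, so that 8 of the 24 libraries of the series entered the comparison. The genes described are those with a mean normalized value of at least 10 over these 8 libraries, which left 13815 of 24958 named genes. Just inside this limit stood Ltb4r1 (10.0114) and Ino80dos (10.0119), and just outside it Gm3558 (9.99744) and Paqr6 (9.97735).

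All mice were C57BL6/J females aged 24 months, and the sources used here name no transgene or engineered deletion. Ctrl + AngII mice had received AngII at 1.5 mg/kg/day for 28 days from a minipump under the skin, and Ctrl mice were not treated. Ovx + AngII and Ovx mice, used here for the question of whether the response depended on the ovaries, had been ovariectomized at 12 months and either received the same infusion or did not. By the account of the study, untreated mice had sham surgery and no vehicle pump, so the pump and the peptide cannot be told apart. It also reports that running saucers were taken away while AngII was given. Whether untreated mice kept theirs is not said, so any part of the saucers was not tested. The same source states that each LV library was a pool of RNA from 2 mice. Which mice entered each pool is not in the labels, so their make-up is not settled, and errors below reflect the variation among pools.

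AngII is the effector peptide of the renin-angiotensin system. It acts through the AT1 receptor to constrict vessels, release aldosterone and raise blood pressure, and it also acts on heart cells directly. A loaded ventricle is known to switch on natriuretic peptide genes and other genes of the fetal programme in its muscle cells, while its fibroblasts become activated and lay down collagen and other matrix proteins.

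The libraries carried the markers of ventricular tissue. The summed value of 15 cardiomyocyte markers ranged from 2209684 to 2415148 in Ctrl + AngII libraries and 2136548 to 2576617 in Ctrl libraries. Deposited values summed to 20363468 to 20730540 in Ctrl + AngII libraries and 24098630 to 25889811 in Ctrl libraries, with 15231 to 16139 and 15804 to 16604 genes above 0. The depth of a single library was known only relative to the median library of the series, read from the steps between small values. It was 0.450 to 1.21 in Ctrl + AngII and 0.868 to 1.87 in Ctrl libraries. Ctrl + AngII library 40 was the shallowest and Ctrl library 38 the deepest. As deposited, the level of all genes differed by −0.28 on the log2 scale between Ctrl + AngII and Ctrl libraries, and by −0.08 between Ovx + AngII and Ovx libraries. Values below are therefore on a common scale set by a median-of-ratios factor per library, and fold changes are differences of log2(value + 1), which understates those of low genes. Values of single libraries are given in the order 40, 41, 42 and 52 for Ctrl + AngII and 37, 38, 39 and 51 for Ctrl.

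Changed genes are those with an adjusted p (limma, Benjamini-Hochberg) no higher than 0.05 whose log2 fold change reached 1 in either direction. AngII changed 164 genes, or 1.19% of those tested. Of these, 128 were higher in Ctrl + AngII libraries (0.927% of genes tested) and 36 were lower (0.261%), so that 78.0% of the changed genes were higher. At the adjusted p alone, 665 genes were higher (4.81%) and 465 lower (3.37%). For 951 genes (6.88%) the 4 Ctrl + AngII libraries all lay above the 4 Ctrl libraries, and for 816 (5.91%) they all lay below. Groups did not overlap in 118 of the 128 higher and 30 of the 36 lower genes. These genes were selected on the same libraries, so this separation is no further support for them. The log2 fold change was over 2 in size in 35 higher and 5 lower genes. The median log2 fold change was 1.44 over the higher genes, −1.21 over the lower genes and −0.0050 over all genes tested.

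Single libraries weighed on these counts. Relative to the Ctrl mean, the median of the 128 higher genes was 1.72, 1.33, 1.45 and 1.46 on the log2 scale in Ctrl + AngII libraries 40, 41, 42 and 52, against −0.38, 0.25, 0.01 and 0.18 in Ctrl libraries 37, 38, 39 and 51. The response was thus largest in library 40 and the baseline lowest in library 37. Without library 37, 110 genes were changed (85 higher and 25 lower), and without library 40, 121 were (98 and 23). Without both, 78 were changed (67 and 11), of which 71 were among the 164. Of the 128 higher genes, 73 kept their call whichever of the 8 libraries was left out, and of the 36 lower genes 12 did. On the values as deposited 281 genes were changed, of which 34.5% were higher, and the median over all genes was −0.28.

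**Figure D1:**
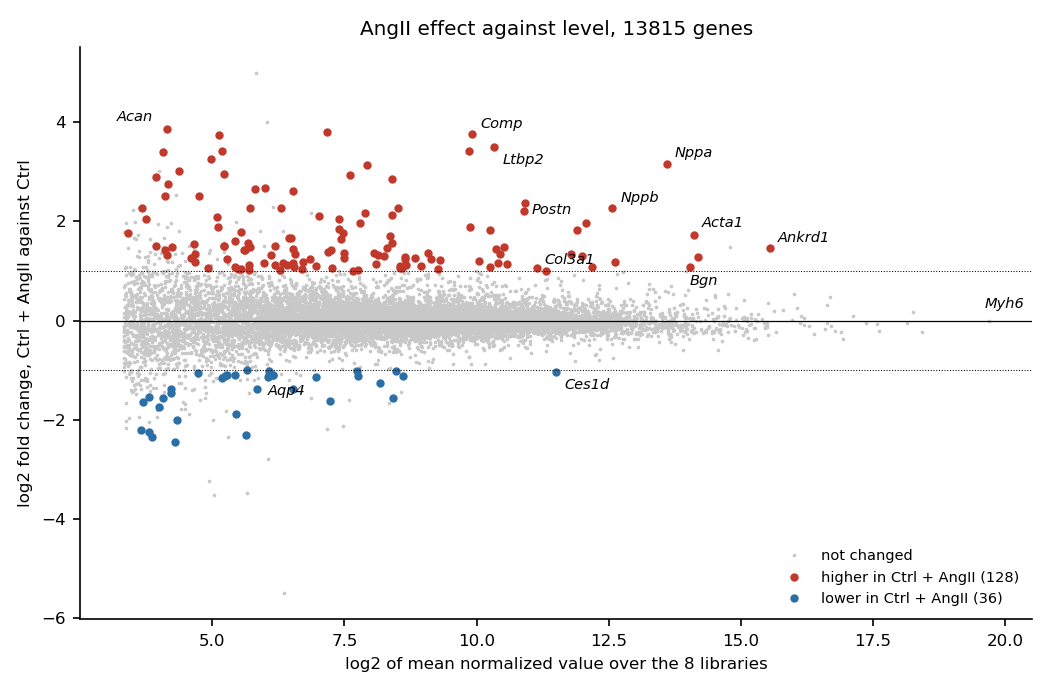
Log2 fold change of Ctrl + AngII against Ctrl (vertical axis) plotted against the log2 of the mean normalized value over the 8 libraries (horizontal axis), 1 point per gene for 13815 genes. Dotted lines mark log2 fold changes of 1 and −1, the 128 genes called higher are red and the 36 called lower are blue, and Nppa, Comp and Ltbp2 lie above 3.

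The natriuretic peptide genes rose in the LV of AngII-infused mice. Nppa, which encodes atrial natriuretic peptide (chromosome 4, 148000722 to 148002074 in GRCm38, the assembly that mm10 names), stood at 22490.3, 24615, 21926 and 19593 in Ctrl + AngII libraries, against 2208, 3664, 1579 and 2903 in Ctrl libraries. The lowest Ctrl + AngII library was above the highest Ctrl library by a wide margin (log2 fold change 3.16, standard error 0.24, adjusted p = 2.1e-07). Nppb, which encodes the B-type peptide (chromosome 4, 147985786 to 147987205), stood at 9870.4, 7874, 9564 and 12775 in Ctrl + AngII libraries, against 1859, 2020.5, 1549 and 3053 in Ctrl libraries (log2 fold change 2.26, standard error 0.20, adjusted p = 1.9e-06). Both genes kept their call without any single library. The hormones' partners did not follow. Of 8 genes tested in this system, 2 were higher and 0 lower, and the list's median was 0.01, near that of all genes. The receptor genes Npr1, Npr2 and Npr3 had log2 fold changes of −0.12, 0.03 and 0.45, and the convertases Corin and Furin, which cut the precursors, −0.10 and −0.0047. Mme, the gene of neprilysin, a protease that breaks the peptides down, had −0.67 (adjusted p = 0.011), within the fold limit. These 6 genes were named after their values were seen.

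Genes of cardiomyocyte stress were higher as well. Of 17 listed genes tested, 3 were changed, none of them downward (2 without libraries 40 and 37), 12 were higher at the adjusted p alone against 4.81% of all genes, and the median was 0.62. Ankrd1, whose ankyrin repeat product is found in the sarcomere and nucleus (chromosome 19, 36111965 to 36119844), stood at 78895, 72053, 57756 and 68087 in Ctrl + AngII libraries, against 16872, 37351, 19333 and 31477 in Ctrl libraries (log2 fold change 1.47, standard error 0.19, adjusted p = 6.5e-05). Acta1, the skeletal alpha-actin gene, which is on in the fetal heart (chromosome 8, 123891758 to 123894775), stood at 27407, 24542, 24920.0 and 25974 in Ctrl + AngII libraries, against 6879, 12138, 2690.1 and 16531 in Ctrl libraries. The Ctrl + AngII libraries were close together while the Ctrl libraries spread widely, with library 39 the lowest and library 51 the highest (log2 fold change 1.72, standard error 0.39, adjusted p = 0.0094). Xirp2, which encodes an actin-binding protein of the intercalated disc, stood at 33715, 27522, 25737 and 19216 in Ctrl + AngII libraries, against 14792, 11905, 7814 and 9731 in Ctrl libraries (log2 fold change 1.27, standard error 0.31, adjusted p = 0.013). Without library 40 the adjusted p of Xirp2 was 0.052, and without libraries 40 and 37 that of Acta1 was 0.081. Acta1 is close in sequence to the cardiac actin gene Actc1, so reads could be split between them.

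The start regions of Acta1, Ankrd1 and Nppb are shown as those of the natriuretic peptide and stress genes above that hold in this window the letters CATTCC, the core bound by TEAD factors of the Hippo pathway, which are known to act on muscle genes. The sequences run from 250 bases before to 50 bases after the start that the RefSeq table (GRCm38.p6) uses, which for Nppb lies inside the gene's coordinates given above. Capitals mark CATTCC on either strand, read as GGAATG on the other, and in Acta1 also the CArG box, the element bound by serum response factor. Acta1 is at chr8:123894726-123895025, minus strand, Ankrd1 at chr19:36119795-36120094, minus strand and Nppb at chr4:147985650-147985949, plus strand.
Acta1: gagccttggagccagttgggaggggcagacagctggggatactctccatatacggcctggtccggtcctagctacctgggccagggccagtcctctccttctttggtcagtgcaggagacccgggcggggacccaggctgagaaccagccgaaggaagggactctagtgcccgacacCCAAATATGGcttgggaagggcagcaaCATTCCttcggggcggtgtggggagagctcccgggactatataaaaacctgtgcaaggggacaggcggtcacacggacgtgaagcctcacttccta
Ankrd1: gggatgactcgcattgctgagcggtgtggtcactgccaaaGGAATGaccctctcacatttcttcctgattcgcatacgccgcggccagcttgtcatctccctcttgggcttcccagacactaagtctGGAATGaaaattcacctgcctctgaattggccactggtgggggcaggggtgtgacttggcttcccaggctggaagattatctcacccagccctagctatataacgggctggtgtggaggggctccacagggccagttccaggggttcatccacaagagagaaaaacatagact
Nppb: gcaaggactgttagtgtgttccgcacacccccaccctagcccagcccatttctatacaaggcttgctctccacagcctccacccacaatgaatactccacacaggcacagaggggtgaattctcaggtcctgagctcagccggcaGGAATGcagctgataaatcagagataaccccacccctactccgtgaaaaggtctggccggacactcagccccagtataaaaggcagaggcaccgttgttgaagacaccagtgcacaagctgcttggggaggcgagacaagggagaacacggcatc
Nppa and Xirp2, which also rose, hold no CATTCC in their windows, whereas Myh7 and Myh6, which did not pass, do. In Acta1 the CArG box lies at −73 to −64 and CATTCC at −46 to −41 from the start. Of the 128 higher genes, 94 had a promoter in the RefSeq table, taken as the first entry of each gene. CATTCC stood on either strand in 21 of them (22.3%), against 14.6% of all 27025 promoters in the table and 12.15% of those of genes tested. TGANTCA, the AP-1 site, stood in 8.51%, against 7.93% of all promoters and 4.95% of those of genes tested. CACGTG, the E-box, stood in 5.32%, against 7.24% and 10.14%. CAGAC, read by SMAD factors, stood in 59.6%, against 49.7% and 47.8%, and the CArG box in 2.13%, against 1.57% and 1.26%. A match is only a stretch of letters, and the promoters of the 36 lower genes held CATTCC in 5 of 25.

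The myosin heavy chains did not pass the test, though Myh7 passed in 11 of 28 alternative fits. Myh7, the slow beta chain that is raised in stressed mouse ventricles, stood at 12038, 52458, 47769 and 59811 in Ctrl + AngII libraries, against 13866, 18957, 8503 and 13189 in Ctrl libraries. Library 40 lay within the Ctrl range while libraries 41, 42 and 52 lay far above it (log2 fold change 1.48, adjusted p = 0.0504). Without library 40 the log2 fold change was 2.02 (adjusted p = 0.0036). Myh6, the fast alpha chain of the adult mouse heart, averaged 846561 ± 62992 in Ctrl + AngII and 846310.0 ± 78847 in Ctrl libraries (SD, n = 4 each), a log2 fold change of 0.00. Myh6 and Myh7 are near copies of each other and Myh7 overlaps the Mhrt transcript, so their reads could be split.

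**Figure D2:**
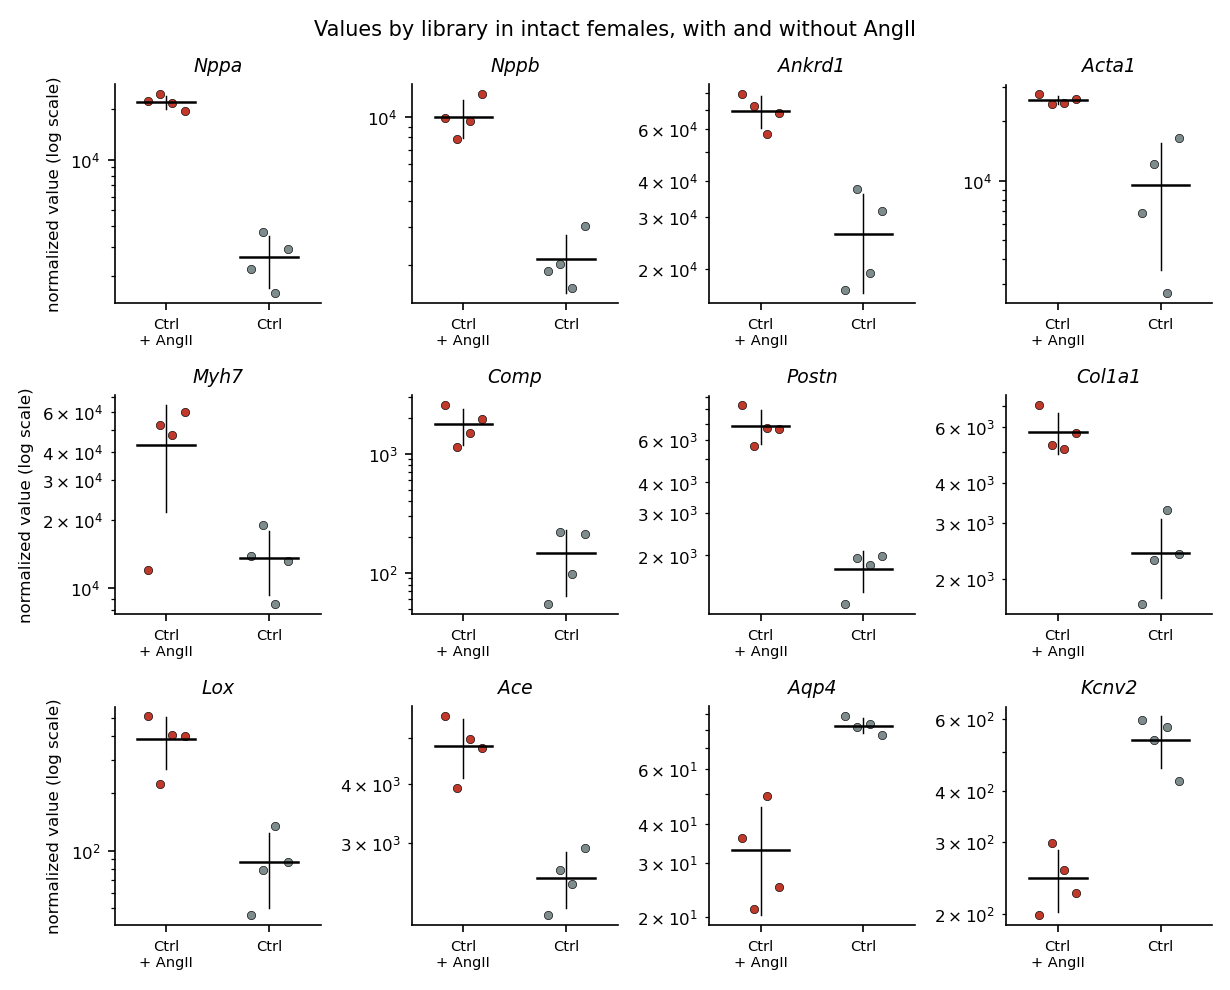
Normalized values of 12 genes (log scale, a separate axis for each gene) in the 4 Ctrl + AngII and 4 Ctrl libraries, with the mean as a bar and the SD as a vertical line where it is smaller than the mean. The groups do not overlap except for Myh7, where Ctrl + AngII library 40 is within the Ctrl range.

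None of 10 renin-angiotensin genes tested was changed. Ace, which encodes the enzyme that makes AngII, stood at 5555, 3909.7, 4972 and 4765 in Ctrl + AngII libraries, against 2106, 2622, 2450.0 and 2922 in Ctrl libraries. The groups were apart and the adjusted p was 7.8e-05, but the log2 fold change of 0.93 was under the limit of 1. Without library 41 Ace passed, at 1.02. Agtr1a, the AT1 receptor gene, stood at 782, 1031, 843 and 858 in Ctrl + AngII libraries, against 1064, 1216, 1228 and 1032 in Ctrl libraries (log2 fold change −0.37, adjusted p = 0.023). All Ctrl + AngII libraries lay below all Ctrl libraries, though library 41 only just, and the fold was within the limit. Agt, the precursor gene, stood at 25.6, 133, 128 and 134 in Ctrl + AngII libraries, against 93.1, 59.5, 106 and 61.9 in Ctrl libraries. Library 40 was far below the other 3 of its group (log2 fold change 0.18, adjusted p = 0.83; without library 40, 0.76 and 0.02). Ren1 was at 0 in all 8 libraries, and Agtr1b and Agtr2 were under the limit on the mean value. The list's median was 0.01.

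Matricellular proteins sit in the matrix and signal to cells rather than bear load. These proteins were the listed group with the most changed genes, 11 of 24 higher and none lower, with a median of 0.89. For this and every other list, the shares over all genes tested were 0.927% higher and 0.261% lower. The lists were chosen with earlier results of these data known, so their counts and rank are a description and not a test. Comp, cartilage oligomeric matrix protein (chromosome 8, 70373548 to 70382066), stood at 2546, 1149, 1481 and 1968 in Ctrl + AngII libraries, against 54.8, 221, 98.1 and 211 in Ctrl libraries (log2 fold change 3.75, standard error 0.34, adjusted p = 2.3e-06). Its relative Thbs4, thrombospondin 4, stood at 2972, 1246, 1065 and 1550.0 in Ctrl + AngII libraries, against 109.6, 192, 119.9 and 183 in Ctrl libraries (log2 fold change 3.41, standard error 0.25, adjusted p = 2.1e-07). In both genes library 40 was the highest and library 37 the lowest. Without these 2 libraries the log2 fold changes were 3.16 and 2.97. Cilp, cartilage intermediate layer protein, stood at 5304, 2337, 2388 and 2954 in Ctrl + AngII libraries, against 299, 718, 717 and 776 in Ctrl libraries (log2 fold change 2.38, standard error 0.26, adjusted p = 1.2e-05). Its paralog Cilp2 stood at 132, 28.1, 28.3 and 42.5 in Ctrl + AngII libraries, against 1.14, 2.61, 10.1 and 6.04 in Ctrl libraries, with library 40 well above the other 3 libraries of its group (log2 fold change 3.25, adjusted p = 0.0027). Spp1, osteopontin, a secreted phosphoprotein of macrophages and bone, stood at 87.2, 54.4, 134 and 105 in Ctrl + AngII libraries, against 3.59, 24.3, 21.0 and 16.2 in Ctrl libraries (log2 fold change 2.66, adjusted p = 0.0059; 0.053 without libraries 40 and 37).

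Periostin and connective tissue growth factor, products of activated fibroblasts, had the smallest adjusted p values of these genes with Thbs4. Postn, periostin (chromosome 3, 54359267 to 54391041), stood at 8312, 5679, 6727 and 6638 in Ctrl + AngII libraries, against 1261, 1945, 1826 and 1989 in Ctrl libraries (log2 fold change 1.97, standard error 0.14, adjusted p = 2.1e-07). Ctgf stood at 6784, 4435, 5918 and 6648 in Ctrl + AngII libraries, against 1333, 1857, 1503 and 1966 in Ctrl libraries (log2 fold change 1.83, standard error 0.14, adjusted p = 2.1e-07). Groups were far apart in both genes and no single library ended either call. The remaining members that passed, named after their values were seen, were Wisp2 (2.27), Thbs1 (1.90), Tnc (1.77) and Fn1, fibronectin (1.33). Without libraries 40 and 37, 9 of the list passed. Thbs2 had a log2 fold change of −0.01, Sparc 0.63 and Tnxb 0.24.

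Collagen genes of both kinds were higher. Of 8 fibrillar collagen genes tested, which make the load-bearing fibres, 4 were changed upward (2 without libraries 40 and 37), with a list median of 0.96. Col1a1, which encodes a chain of type I collagen, stood at 7031, 5278, 5111 and 5757 in Ctrl + AngII libraries, against 1664, 2295, 3292 and 2396 in Ctrl libraries (log2 fold change 1.29, standard error 0.15, adjusted p = 2.9e-05). Col3a1, the type III chain, stood at 10834, 8844, 7212 and 7815 in Ctrl + AngII libraries, against 2590.3, 3654, 5921 and 3633 in Ctrl libraries (log2 fold change 1.18, standard error 0.18, adjusted p = 4.3e-04). Library 39 was the highest Ctrl library for both chains and library 37 the lowest. Col5a2 had a log2 fold change of 1.33 and Col1a2, just past the limit, a value of 1.07. Col1a2 had 0.98 without library 37 and 0.998 without library 40, and without both of these Col3a1 had 0.89. On the values as deposited 2 of the fibrillar genes passed.

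Of 24 other collagen genes tested, 5 were higher and 0 lower, with a median of 0.50. Col12a1, a collagen that decorates the surface of fibres (chromosome 9, 79598987 to 79721141), stood at 797, 293, 275 and 396 in Ctrl + AngII libraries, against 32.2, 58.9, 45.9 and 45.6 in Ctrl libraries (log2 fold change 3.13, standard error 0.30, adjusted p = 3.2e-06). Col8a2, a chain of the short collagen VIII of vessel walls, stood at 283, 111, 95.6 and 153 in Ctrl + AngII libraries, against 17.5, 34.9, 24.1 and 19.6 in Ctrl libraries (log2 fold change 2.61, adjusted p = 3.2e-05). Its partner Col8a1 stood at 2646, 1947, 1977 and 2056 in Ctrl + AngII libraries, against 589.9, 969, 599 and 1008 in Ctrl libraries (log2 fold change 1.48, adjusted p = 3.2e-05). Library 40 was the highest in all of these. Col16a1 had 1.24 and Col18a1, which was named after its value was seen, 1.22. The basement membrane chains Col4a1 and Col4a2 had 0.58 and 0.57, under the limit.

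Among proteins of the elastic fibre, 3 of 18 were higher, none was lower, and the median was 0.36. Ltbp2, a latent TGF-beta binding protein family member that associates with fibrillin (chromosome 12, 84783212 to 84876558), stood at 3378, 1616, 2081 and 2324 in Ctrl + AngII libraries, against 92.6, 327, 223 and 239 in Ctrl libraries (log2 fold change 3.49, standard error 0.28, adjusted p = 3.8e-07). The fold exceeded those of Mfap5 (1.197) and Mfap4 (1.23), microfibril-associated proteins, while Ltbp1 had −0.21, Ltbp3 0.59, Ltbp4 0.33 and the elastin gene Eln 0.69. On the values as deposited 1 gene of the list passed, and without libraries 40 and 37 Mfap4 had 0.957.

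Small leucine-rich proteoglycans bind collagen and control the width of its fibres. Fmod, fibromodulin, stood at 1222, 468, 224 and 497 in Ctrl + AngII libraries, against 51.8, 94.1, 60.3 and 76.8 in Ctrl libraries (log2 fold change 2.85, standard error 0.40, adjusted p = 1.4e-04). Library 42 was the lowest and library 40 the highest of its group, and all were above the Ctrl libraries. Bgn, biglycan, stood at 29359, 17799, 21823 and 22456 in Ctrl + AngII libraries, against 8118, 11954, 10984 and 11760.4 in Ctrl libraries (log2 fold change 1.09, adjusted p = 3.5e-05), and its fold was under the limit without library 37 or 40 (0.96 and 0.96). Of 10 genes tested, 2 passed and the others did not, among them Dcn, decorin (0.31), Lum, lumican (0.28) and Omd, osteomodulin (−0.98).

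Of 24 genes for collagen processing, 3 were higher (median 0.35). Lox, lysyl oxidase, the enzyme that cross-links collagen and elastin, stood at 507, 225, 406 and 398 in Ctrl + AngII libraries, against 45.9, 79.5, 135 and 87.5 in Ctrl libraries (log2 fold change 2.17, standard error 0.33, adjusted p = 3.0e-04), and Loxl3, of the same family, had 1.30 (0.948 without libraries 40 and 37). P4ha3, a prolyl hydroxylase subunit, stood at the low values of 43.7, 22.6, 18.9 and 25.6 in Ctrl + AngII libraries, against 3.53, 2.19, 5.29 and 1.05 in Ctrl libraries (log2 fold change 2.89, standard error 0.47, adjusted p = 6.3e-04). Its relatives P4ha1 and P4ha2 had log2 fold changes of 0.14 and 0.03, and the collagen chaperone Serpinh1 −0.07.

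Of 32 matrix proteases and inhibitors, 4 were higher and none lower (median 0.32). Timp1, a broad inhibitor of matrix metalloproteinases, stood at 341, 321, 402 and 334 in Ctrl + AngII libraries, against 53.2, 77.1, 163 and 89.5 in Ctrl libraries (log2 fold change 1.97, standard error 0.36, adjusted p = 0.002). Mmp3, stromelysin, stood at 312, 272, 500.4 and 404 in Ctrl + AngII libraries, against 164, 158, 279 and 101 in Ctrl libraries, and the groups overlapped (log2 fold change 1.13, adjusted p = 0.018). Adamts20 had 1.48 and Adamts8 1.01. These calls were fragile. Leaving out 1 library ended that of Mmp3 (adjusted p up to 0.062, without library 51), of Adamts20 (up to 0.11, without library 40) and of Adamts8 (0.075 without library 37 and 0.074 without library 52). Without libraries 40 and 37 together, 1 of the 4 passed, which was Timp1. Mmp2, a gelatinase, had 0.85 and the inhibitor genes Timp2 and Timp3 0.33 and 0.12.

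**Figure D3:**
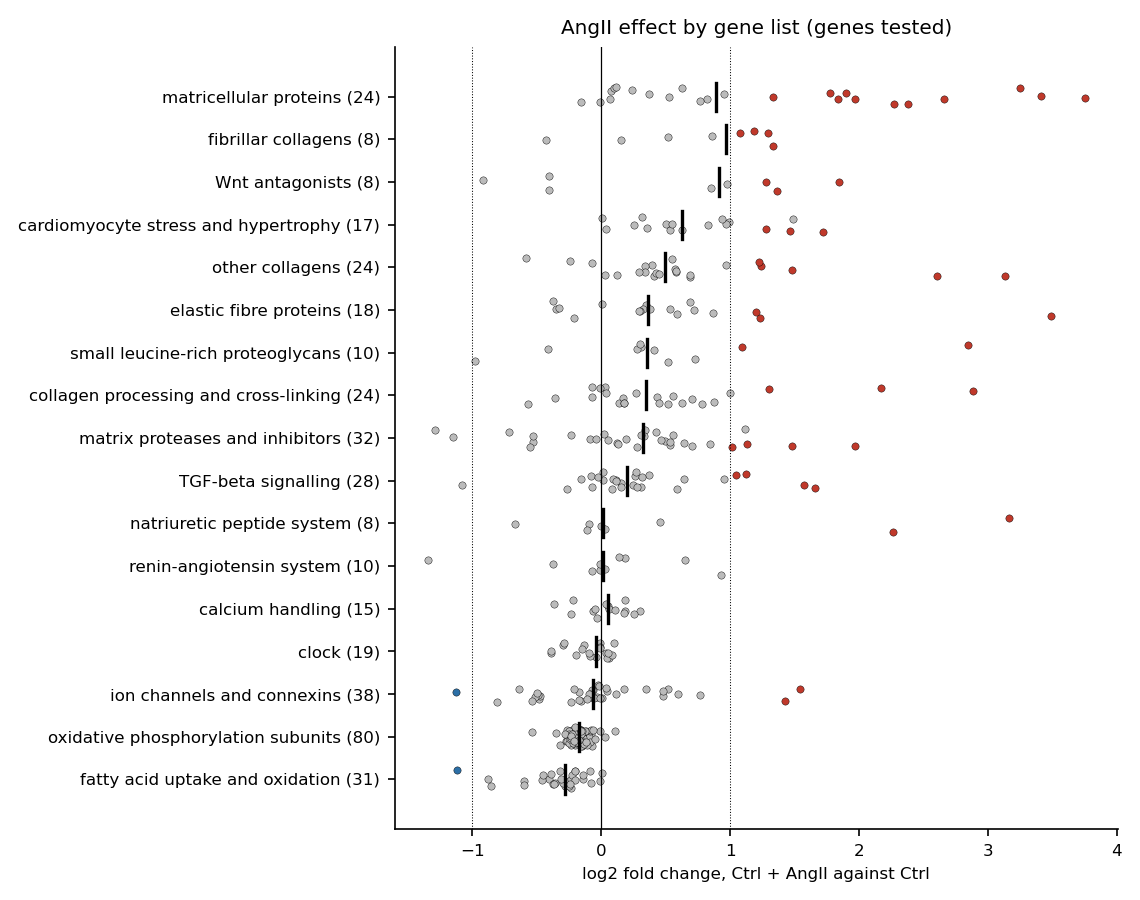
Log2 fold change of Ctrl + AngII against Ctrl (horizontal axis) for the tested members of 17 gene lists, with the number tested in parentheses. Points are genes, red if called higher and blue if called lower, black bars are list medians, and the medians run from 0.96 for fibrillar collagens to −0.28 for fatty acid uptake and oxidation.

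Among secreted signals, TGF-beta and activin genes showed a few changes. Of 28 TGF-beta signalling genes, 4 were higher (2 without libraries 40 and 37) and none lower. The list's median of 0.20 lay below 0 on the values as deposited. Tgfb2, a ligand that activates fibroblasts, stood at 1031, 835, 681 and 770.4 in Ctrl + AngII libraries, against 407, 408, 356 and 422 in Ctrl libraries (log2 fold change 1.04, standard error 0.12, adjusted p = 3.5e-05), with 0.93 without library 40 and 0.99 without library 39. Tgfb1 had 0.16 and Tgfb3 0.64. Fstl3, which binds and blocks activins, stood at 595, 439.9, 437 and 539 in Ctrl + AngII libraries, against 137, 229, 115 and 217 in Ctrl libraries (log2 fold change 1.57, standard error 0.19, adjusted p = 3.2e-05). Inhba, the activin A subunit, stood at 95.6, 118, 78.8 and 107 in Ctrl + AngII libraries, against 54.6, 52.8, 38.5 and 35.8 in Ctrl libraries, with groups apart but an adjusted p of 0.048 that no fit without 1 library kept (0.056 to 0.12). Nox4, an NADPH oxidase that TGF-beta induces in fibroblasts, stood at 168, 103, 128 and 136 in Ctrl + AngII libraries, against 20.8, 71.4, 37.9 and 50.2 in Ctrl libraries (log2 fold change 1.66, adjusted p = 0.0025). Receptor and SMAD genes did not pass, with Tgfbr1 at 0.37, Tgfbr2 at 0.25, Smad3 at −0.03 and Smad7 at 0.01.

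Genes that restrain Wnt signals rose in part. Sfrp2 and Frzb, secreted frizzled-related proteins that bind Wnts, and Dkk3, a member of the dickkopf family, were the 3 of 8 that passed, and the count of upward calls was 3 under every alternative tried. Sfrp2 stood at 393, 202, 175 and 289.8 in Ctrl + AngII libraries, against 74.0, 87.9, 55.7 and 64.8 in Ctrl libraries (log2 fold change 1.84, standard error 0.24, adjusted p = 9.0e-05). Dkk3 had 1.37 and Frzb 1.27, with no overlap between groups, and Wif1 had −0.41 and Sfrp5 −0.92. On the values as deposited 1 further member of the list passed downward.

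Single members passed in other ligand systems. Edn3, an endothelin, stood at 508, 361, 591 and 556 in Ctrl + AngII libraries, against 271, 327, 108 and 288 in Ctrl libraries (log2 fold change 1.11, adjusted p = 0.012, or 0.75 without library 39). Edn1 had 0.35 and the receptors Ednra and Ednrb 0.09 and 0.01. All 6 endothelin genes tested had a positive sign, and the largest log2 fold change, 1.80, belonged to a member that was not called. Igfbp2, an insulin-like growth factor binding protein, stood at 66.5, 75.0, 29.7 and 85.6 in Ctrl + AngII libraries, against 2.68, 20.9, 11.9 and 0 in Ctrl libraries (log2 fold change 3.42, adjusted p = 0.0055, or 0.059 without libraries 40 and 37). It was listed at 0 in 1 Ctrl library. Angptl7, an angiopoietin-like secreted protein whose gene lies within Mtor, stood at 550.2, 220.3, 223 and 380.1 in Ctrl + AngII libraries, against 40.1, 57.5, 19.1 and 63.3 in Ctrl libraries (log2 fold change 2.93, standard error 0.35, adjusted p = 3.3e-05). Atp6v0a4, a proton pump subunit best known from the kidney, stood at 138, 73.0, 103 and 126 in Ctrl + AngII libraries, against 9.48, 34.9, 11.7 and 15.9 in Ctrl libraries (log2 fold change 2.68, adjusted p = 3.3e-05). In both the lowest Ctrl + AngII library lay clear of the highest Ctrl library.

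The genes that fell did so by smaller folds, and many were low in value. Of the 36, 18 had a mean value under 50. Aqp4, a water channel, stood at 36.0, 21.4, 49.2 and 25.0 in Ctrl + AngII libraries, against 88.5, 81.7, 83.4 and 77.2 in Ctrl libraries (log2 fold change −1.38, standard error 0.26, adjusted p = 0.0025), and kept its call under all 28 alternatives. Slc16a7, a monocarboxylate transporter, stood at 124, 230.4, 129 and 204 in Ctrl + AngII libraries, against 547, 354, 423 and 309 in Ctrl libraries (log2 fold change −1.26, adjusted p = 8.7e-04). Ces1d, a carboxylesterase that cleaves lipid esters, stood at 1609.7, 2281, 1992 and 1740.4 in Ctrl + AngII libraries, against 4561, 4014, 3380.3 and 3676 in Ctrl libraries (log2 fold change −1.04, standard error 0.13, adjusted p = 5.8e-05), with −0.96 without library 37 and −0.96 without library 40. Tbc1d10c, which encodes an inhibitor of Ras and calcineurin signals in lymphocytes, had −1.38. Without libraries 40 and 37 Tbc1d10c had an adjusted p of 0.094, and Slc16a7 and Kcnv2 had folds of −0.97 each. Ryr1 (−1.14), Opn4 (−1.12), Tmem56 (−1.09) and Gal3st2c (−1.09) each lost their call without at least 2 of the single libraries. The adjusted p of Opn4 was 0.11 without library 37 and 0.081 without library 40, and that of Ryr1 0.063 without library 51 and 0.052 without library 41. Tmem56 had a fold of −0.93 without library 37 and −0.95 without library 40. Gal3st2c had −0.996 and −0.994 without library 38 or 42.

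Channel genes split. Of 38 tested, 2 were higher and 1 lower. Kcnv2, a subunit that forms no channel alone but modifies other potassium channels (chromosome 19, 27322061 to 27337179), stood at 199, 298, 257 and 226 in Ctrl + AngII libraries, against 598, 535, 575 and 424 in Ctrl libraries (log2 fold change −1.12, standard error 0.15, adjusted p = 1.2e-04). Every Ctrl + AngII library was below every Ctrl library. Clcn1, a chloride channel of muscle that was not on the list, stood at 109, 208, 109 and 149 in Ctrl + AngII libraries, against 316, 315, 273 and 236 in Ctrl libraries (log2 fold change −1.02), and its fold was under the limit without library 37, 38, 40 or 42 (−0.97, −0.97, −0.91 and −0.91). Kcna4, the channel of a transient outward current, stood at 51.9, 34.6, 20.3 and 39.4 in Ctrl + AngII libraries, against 14.4, 22.8, 13.5 and 3.23 in Ctrl libraries. The groups overlapped (log2 fold change 1.54), and the call ended without library 37 (adjusted p = 0.053), library 40 (0.11), library 41 (0.059), library 51 (0.091) or library 52 (0.085). Kcnd2 and Kcnip2, subunits of the fast transient outward current, had −0.48 and −0.49, past the adjusted p (0.043 and 0.047) and within the fold limit.

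None of the 15 genes tested from the calcium handling list passed. Outside the list, Ryr1 was called lower and Jsrp1 higher, calls kept in 6 and 2 of the 8 fits without 1 library. Atp2a2, the pump that refills the sarcoplasmic reticulum, stood at 308843, 335782, 309498 and 337708 in Ctrl + AngII libraries, against 420510.0, 374335, 371861 and 352686 in Ctrl libraries. All Ctrl + AngII libraries were below all Ctrl libraries, by a log2 fold change of −0.23 (adjusted p = 0.082; exact two-sided permutation test over the 70 labellings of 4 and 4 libraries, p = 0.0286, the smallest it can give). Pln, phospholamban, its inhibitor, had −0.37 (adjusted p = 0.0038) and Ryr2, the release channel, 0.19.

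Genes of fat oxidation and respiration mostly had small negative fold changes. Of 31 genes for fatty acid uptake and oxidation, 30 had a negative log2 fold change, as did 7040 of all 13815 genes, 14 were lower at the adjusted p alone against 3.37% of all genes, and the median was −0.28. Acot1, a cytosolic acyl-CoA thioesterase, was the single changed member and stood at 148, 128, 97.6 and 172 in Ctrl + AngII libraries, against 333, 275, 314 and 253 in Ctrl libraries (log2 fold change −1.12, adjusted p = 0.0024, or −0.97 without library 42). Ucp3 had −0.88, Acaa2 and Ech1 −0.60 and −0.60, and Cpt1b, the gate of mitochondrial entry, 0.00. Of 80 oxidative phosphorylation subunits 78 had a negative sign and 15 were lower at the adjusted p alone, with a median of −0.17 and a range from −0.54 to 0.11. None of them was changed. In bulk tissue, less RNA of a kind per cell and fewer cells of a type cannot be told apart, and signs this small depend on the common scale.

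In glycolysis 1 of 25 genes was higher and 1 lower. Pfkp, the platelet form of phosphofructokinase, stood at 3392, 2535, 3519 and 2816 in Ctrl + AngII libraries, against 1297, 1548, 1489 and 1527 in Ctrl libraries (log2 fold change 1.06, with 0.998 without library 37 and 0.98 without library 42). Pfkfb1, which sets the level of the enzyme's activator fructose bisphosphate, stood at 162, 270.1, 297 and 213 in Ctrl + AngII libraries, against 567, 495, 504 and 332 in Ctrl libraries (log2 fold change −1.02, and from −0.85 without library 40 to −0.99 without library 38 in the 5 fits that lost the call). The groups did not overlap in either gene.

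Several gene lists had no changed member. None of 19 clock genes passed even the adjusted p (median −0.04), and among 21 heat shock genes and 18 chaperones of the endoplasmic reticulum none was changed (medians 0.00 and −0.09). At the adjusted p alone 3 of the heat shock genes were higher and 3 lower, against 4.81% and 3.37% of all genes. Hspa1l, which was not on the heat shock list, was called higher and kept its call in 7 of 8 fits without 1 library. Nor was any of 8 steroid hormone receptor genes changed (median 0.02), with Esr2 at 0 in all 8 libraries. Cell division genes had a negative sign in 20 of 23 members (median −0.38), against 7040 of all 13815 genes. Their summed value was 1416 to 1629 in Ctrl + AngII libraries and 1936 to 2578 in Ctrl libraries, without overlap, while no member passed the adjusted p. Ercc6l and Brca1, which were not on this list, were called lower, and kept the call in 4 and 1 of the 8 fits without 1 library. Interferon-stimulated genes had a positive sign in 17 of 18, against 6775 of all 13815 genes (median 0.54), with sums of 6986 to 11318 in Ctrl + AngII libraries and 5139 to 12010.5 in Ctrl libraries that overlapped, and none passed. No gene was changed among 13 glucocorticoid-responsive genes (median 0.03), 14 enzymes of serine, glycine and folate metabolism (median 0.04) and 7 cyclin-dependent kinase inhibitors (median −0.06). Of 21 immediate early genes Egr2 alone passed, at 53.8, 33.4, 65.0 and 68.4 in Ctrl + AngII libraries, against 10.6, 13.4, 24.4 and 29.8 in Ctrl libraries (log2 fold change 1.51, adjusted p = 0.013, or 0.056 without library 37). Of 20 complement genes C7 (1.26) and Masp1 (1.05) passed, though without library 37 they had 0.93 and 0.84. For Masp1 the fold was under the limit also without library 39, 40 or 52, at 0.94, 0.994 and 0.999. Of 5 aquaporins Aqp4 alone was changed.

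The libraries also held RNA of other cells than muscle. Activated fibroblast markers summed to 13373 to 21322 in Ctrl + AngII libraries and 5825 to 8061 in Ctrl libraries. Fap, Meox1, Acta2, Runx1 and Lrrc17 did not pass. The 5 of 10 that passed (4 without libraries 40 and 37) were Postn, Cilp, Tnc, Sfrp2 and Cthrc1. Of these, Cthrc1, a secreted protein of fibroblasts in scars, stood at the low values of 139, 27.3, 23.0 and 77.0 in Ctrl + AngII libraries, against 2.30, 2.68, 5.30 and 2.07 in Ctrl libraries (log2 fold change 3.74, adjusted p = 8.4e-04). General fibroblast markers summed to 15118 to 18719.7 in Ctrl + AngII libraries and 10697 to 13867 in Ctrl libraries, and Pi16 alone of 11 passed (1.01, or 0.89 without library 37 and 0.90 without library 40). Postn, Cilp, Tnc and Sfrp2, described above, are themselves part of the activated fibroblast sum, so it is no separate measure of them. The share of cells and the RNA per cell were not tested apart. Atrial markers summed to 20118 to 25141 in Ctrl + AngII libraries and 2261 to 4492 in Ctrl libraries. Nppa, already described, made up most of the sum in Ctrl + AngII libraries, so the higher sum is no rise of atrial markers in general. It was the single changed member of 4 tested, whose median log2 fold change was 0.09. Myl7, Sln and Mybphl were under the limit on the mean value.

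Other cell types had few changed markers. Endothelial markers summed to 41554 to 47033 in Ctrl + AngII libraries and 41599 to 47433 in Ctrl libraries and none of 15 passed the adjusted p. Pericyte and smooth muscle markers summed to 46900.1 to 49940.5 in Ctrl + AngII libraries and 46236 to 48341 in Ctrl libraries. At the adjusted p alone 6 of 15 were higher and 1 lower, against 4.81% and 3.37% of all genes. In 5 of the 15 all Ctrl + AngII libraries lay above all Ctrl libraries, against 6.88% of all genes. Of these Cnn1, calponin, a contractile protein of smooth muscle, alone passed the fold limit, at 148, 159, 132 and 201 in Ctrl + AngII libraries, against 37.5, 71.7, 101 and 70.1 in Ctrl libraries (log2 fold change 1.24, adjusted p = 0.0059, or 0.98 without library 37). Macrophage markers summed to 14154 to 17572 in Ctrl + AngII libraries and 11819 to 18534 in Ctrl libraries and none of 16 was changed. No marker was changed for lymphocytes (9 tested), adipocytes (7), erythroid cells (9), Schwann cells (6), epicardium (6), skeletal muscle (3) or cardiomyocytes (15). Of the 15 cardiomyocyte markers, 3 were higher and 2 lower at the adjusted p alone, against 4.81% and 3.37% of all genes. Erythroid markers varied widely within both groups, at 34102 to 123930.2 in Ctrl + AngII libraries and 25454 to 97069 in Ctrl libraries, and their part in any result was not tested.

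The same infusion was given to ovariectomized mice, in which 154 genes were changed (1.11%). Of the 128 genes higher in intact mice, 123 moved in the same direction in Ovx mice by sign alone and 55 were also changed there, and of the 36 lower genes 32 and 13. The higher genes had a median log2 fold change of 1.44 in intact mice, where they had been selected, and 0.998 in Ovx mice. The lower genes had −1.21 and −0.918. Since the genes were chosen by the first of each pair of values, nothing is read from the larger size in intact mice. None of the 164 passed the test of the difference itself (lowest adjusted p 0.067 among higher and 0.27 among lower genes).

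**Figure D4:**
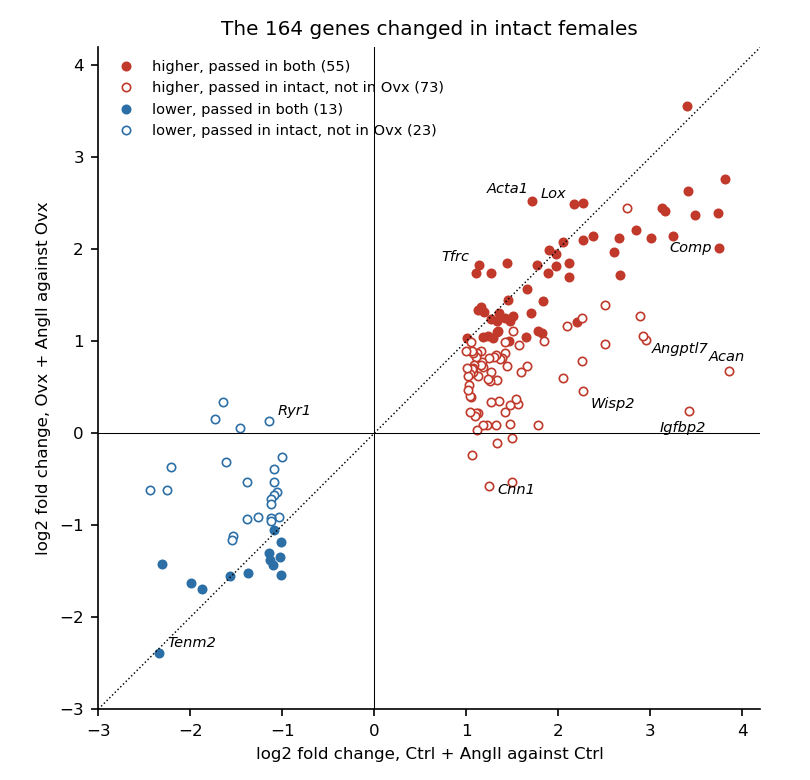
Log2 fold change of Ovx + AngII against Ovx (vertical axis) plotted against that of Ctrl + AngII against Ctrl (horizontal axis) for the 164 genes changed in intact mice. Filled points passed in both (55 higher, 13 lower), open points in intact mice only (73 and 23), the dotted line marks equal values, and the genes were chosen by the horizontal axis.

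The leading genes responded in ovariectomized mice too. Nppa stood at 12279, 20071, 14117 and 15317 in Ovx + AngII libraries, against 2521, 2078, 2548 and 4896 in Ovx libraries (log2 fold change 2.42, difference from intact mice −0.74, adjusted p = 0.44). Comp stood at 1154, 1208, 627 and 845 in Ovx + AngII libraries, against 283, 216, 185 and 239.7 in Ovx libraries (log2 fold change 2.02, difference −1.73, adjusted p = 0.19). Acta1 stood at 26048, 34416, 53175 and 33942 in Ovx + AngII libraries, against 6264, 5123, 4108 and 11296 in Ovx libraries (log2 fold change 2.52, difference 0.80, adjusted p = 0.67). Igfbp2 was less alike, at 18.8, 13.5, 13.0 and 6.23 in Ovx + AngII libraries, against 14.5, 4.77, 7.51 and 18.4 in Ovx libraries (log2 fold change 0.24), yet its difference of −3.17 had a standard error of 1.02 and an adjusted p of 0.27. For Cnn1 the values were 77.7, 66.1, 82.2 and 146 in Ovx + AngII libraries, against 157, 128, 103 and 147 in Ovx libraries (log2 fold change −0.57, difference −1.82, adjusted p = 0.075). Ltbp2, with a log2 fold change of 2.37 in Ovx mice, had a difference of −1.12 (adjusted p = 0.33).

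The difference of the AngII effect, Ovx minus intact, passed the adjusted p for 8 genes (0.0579%) and also the fold limit for 1, Dbp (0.00724%), while 1440 genes had an unadjusted p under 0.05. None of the 8 was changed in intact mice. Dbp, a transcription factor of the circadian output, stood at 3317, 4417, 3089 and 3539 in Ctrl + AngII libraries, against 4445, 4362, 3489 and 3617 in Ctrl libraries (−0.15), and at 2506, 1875, 1460.4 and 1996 in Ovx + AngII libraries, against 4455, 5059.6, 4619 and 5512 in Ovx libraries (−1.35). Tef, a relative of Dbp, averaged 5510.4 ± 446 in Ctrl + AngII and 5559 ± 536 in Ctrl libraries, and 3210.3 ± 366 in Ovx + AngII and 5576 ± 581 in Ovx libraries (SD, n = 4 each). In both genes the Ovx + AngII mean was the lowest of the 4 groups. Mice were killed at zeitgeber times 2 to 6 on a 12 h light cycle, and the time of each animal is not in the labels, so that its part was not tested.

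Kcnh2, the potassium channel of a repolarizing current, averaged 2869 ± 103 in Ctrl + AngII and 2801 ± 272 in Ctrl libraries, and 1984 ± 87.8 in Ovx + AngII and 2929 ± 51.1 in Ovx libraries (difference −0.60, standard error 0.09, adjusted p = 0.014). Tspan4, a tetraspanin, averaged 962 ± 42.1 in Ctrl + AngII and 846 ± 79.4 in Ctrl libraries, and 604 ± 30.9 in Ovx + AngII and 906 ± 88.8 in Ovx libraries (difference −0.77). Tcap, telethonin of the Z-disc, averaged 45802 ± 5220.1 in Ctrl + AngII and 46749.9 ± 8660.5 in Ctrl libraries, and 27836 ± 2632 in Ovx + AngII and 51217 ± 3474 in Ovx libraries (difference −0.86). These genes too were low in Ovx + AngII libraries. Sulf2, a heparan sulfate sulfatase, followed another pattern, with 3259 ± 178 in Ctrl + AngII and 2396 ± 173 in Ctrl libraries, and 3132 ± 34.0 in Ovx + AngII and 3124 ± 64.9 in Ovx libraries (difference −0.44), so that its Ctrl libraries were the low ones. Ephx1, an epoxide hydrolase, averaged 2223 ± 89.1 in Ctrl + AngII and 1754 ± 146 in Ctrl libraries, and 1495 ± 194 in Ovx + AngII and 2029 ± 169.7 in Ovx libraries, and Podn, podocan, 884 ± 75.2 in Ctrl + AngII and 667 ± 68.4 in Ctrl libraries, and 584 ± 26.5 in Ovx + AngII and 731 ± 90.3 in Ovx libraries, with opposite signs of the AngII effect in intact and Ovx mice. Of 27 alternatives, Tspan4 and Kcnh2 passed in 24, Dbp and Ephx1 in 22, Tef in 19, Tcap in 12, and Sulf2 and Podn in 10. With all 24 libraries in the fit, without a variance trend or without libraries 51 to 54, none of the 8 passed. Overlapping genes (Chid1 for Tspan4 and Sphk2 for Dbp) could share reads with them.

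**Figure D5:**
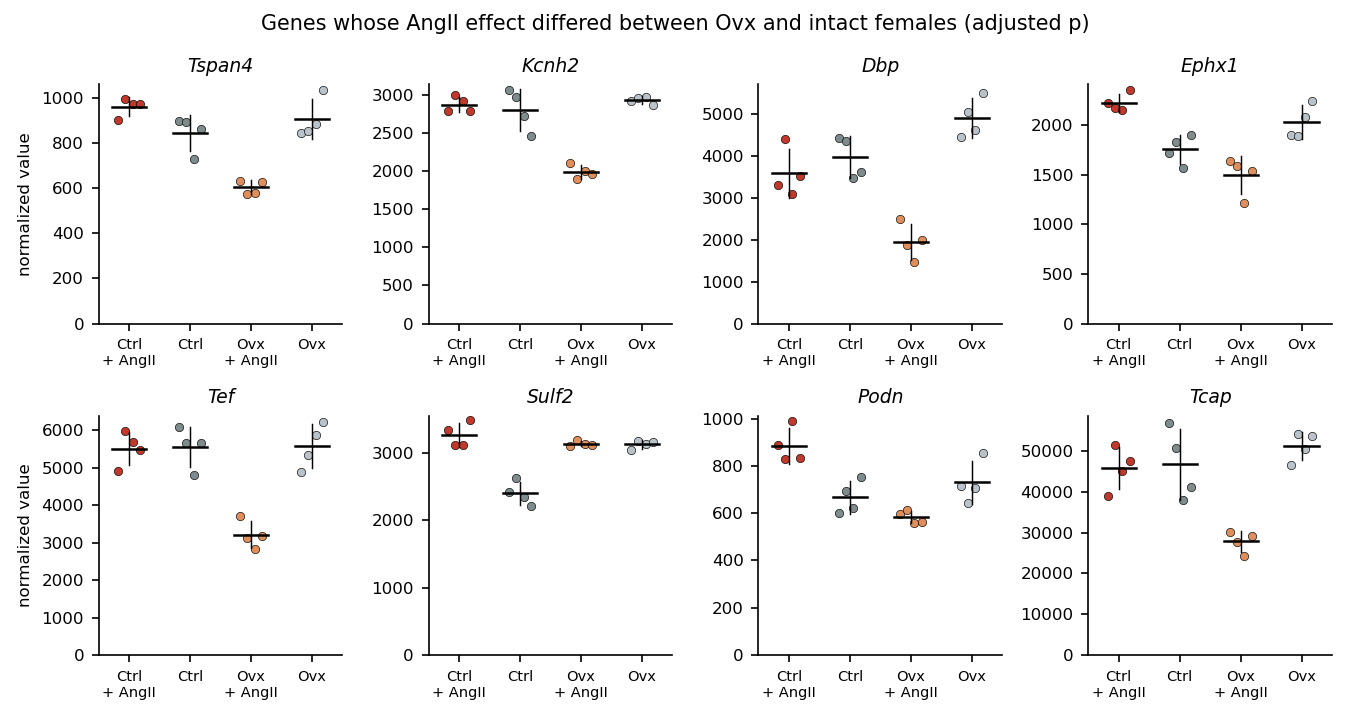
Normalized values of the 8 genes whose AngII effect differed between Ovx and intact mice at the adjusted p, in the 4 libraries of each group, with the mean as a bar and the SD as a vertical line. The Ovx + AngII mean is the lowest for every gene but Sulf2, for which the Ctrl mean is.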

How the data were processed

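LV mRNA was measured in 24 libraries, of which the 16 female ones were used for tests. The authors sequenced stranded mRNA libraries, mapped them with STAR (UCSC mm10) and used DESeq2 for normalization. STAR and Salmon appear in the submitters' processing notes, with no version. The deposited values are a normalized signal per gene, not whole and never negative. Whole reads could not be recovered (10.5% to 33.1% of low values were whole within 0.01), so no count model was fitted and no interval that needs counts is given. Whether counting used the strand is not given in the sources used here. Of 24973 rows, 14 named by dates (0.0552% of the summed values) and 1 without a name were left out, and 5718 genes were at 0 in all libraries. Every value column had a sample (0 without one).

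Libraries were scaled by a median-of-ratios factor over 13871 genes. The 4 female groups were fitted together on log2(value + 1) by limma 3.58.1 (R 4.3.3), using empirical Bayes moderation with a mean-variance trend, with Benjamini-Hochberg adjustment over the 13815 genes with a mean of at least 10. The thresholds, an adjusted p of 0.05 and a fold of 2, are those of the study. The difference of the AngII effects (Ovx minus intact) is a contrast of the same fit. The script was tested on simulated data. Groups came from the sample labels, and libraries carry the sample number of the label. Within the 2 intact groups pairs of libraries had a Pearson r of 0.969 to 0.982 across genes and a median difference of 0.140 to 0.212 (log2), so none was counted as a duplicate.

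The members and the 45 gene lists were chosen with earlier results of these data known. Named genes were, among changed genes with a mean of at least 50 and groups apart, the 12 largest increases and decreases; the up to 4 changed genes of largest fold in each list; 17 fixed genes; up to 8 genes past the adjusted p for the difference; and those just inside the limit on the mean. Some items that met this rule are not reported here. Other list members are given to show the rest of a list and were chosen after their values were seen. Alternatives were the pseudocount, the filter, the scaling, the libraries in the fit, the variance model and leaving out libraries. Coordinates and promoters are from RefSeq (GRCm38.p6), the assembly of mm10.
Leaving out libraries 40 and 37 together was chosen after seeing the data.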

Additional observations from a re-analysis of the deposited data

Results flagged for a closer look

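Of 174 group values tested among the named genes, 7 held a library far from the other 3 of its group (4.02%), where chance gives about 1 in 20. In Ctrl library 37 Cilp was the lowest at 298.548, against 716.904 to 776.289 in the others. In Ctrl + AngII library 40 Col8a1 (2646.32, others 1947.29 to 2056.23) and Cilp2 (131.744, others 28.1279 to 42.5101) were the highest and Agt (25.6352, others 128.48 to 134.491) the lowest. In the other Ctrl + AngII libraries Adamts8 was highest in library 52 (93.5324, others 59.8192 to 64.333), C7 highest in library 42 (314.048, others 219.02 to 229.37) and Dkk3 lowest in library 41 (650.754, others 806.438 to 811.584).

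The AngII effect differed between Ovx and intact mice at an adjusted p of at most 0.05 (limma, Ovx minus intact on the log2 scale) for 8 genes. The differences were −0.77 for Tspan4, −0.60 for Kcnh2, −1.19 for Dbp, −0.79 for Ephx1, −0.79 for Tef, −0.44 for Sulf2, −0.72 for Podn and −0.86 for Tcap, with adjusted p of 0.014, 0.014, 0.018, 0.018, 0.02, 0.042, 0.045 and 0.045.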

How the results depend on the processing

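Under 28 alternatives no named gene with a call in intact mice changed sign. Of named genes without a call in intact mice, the fold changes of Agt, Ino80dos, Kcnh2, Myh6, Tcap, Tef and Tspan4 changed sign under some, and on the values as deposited 33 list medians lay below 0, against 14. Of 2502 values of named genes, 237 no longer passed and 12 newly did. With only genes of a mean of at least 50, 18 genes were lower. On the values as deposited 281 were changed, 184 lower, 6984 passed the adjusted p alone, and the difference between Ovx and intact mice passed for 1045 genes and with the fold limit for 32. With only the 8 libraries in the fit 20 were lower. No gene passed for that difference, with or without the fold limit (0 and 0), with all 24 libraries, without a variance trend, or without libraries 51 to 54, where 570 passed the adjusted p alone for AngII in intact mice, while 1440 genes had an unadjusted p under 0.05 in limma with all 16 libraries. With array quality weights it passed for 76 and 7. Without libraries 40 and 37, 78 were changed, 67 higher and 11 lower, 463 passed the adjusted p alone and 3 the difference with the fold limit. Leaving out 1 library gave 110 to 193 changed genes, 85 to 151 higher, 20 to 53 lower and 663 to 1296 at the adjusted p alone, and for the difference 2 to 114 and, with the fold limit, 0 to 10. The lowest counts came without Ctrl library 37, except for lower genes (Ctrl library 38). For the difference the highest came without Ovx library 43 and the lowest without Ovx library 53, and with the fold limit also without Ovx + AngII library 47. The cause was not tested. No paired analysis was possible because the libraries of different groups share no number. The study gives an average and a range of reads for the LV samples, but the count of each single library is unknown. Library 40, the shallowest, is among those whose removal lowered the counts.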

Other observations

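Genes in no list made up 72 of the 128 higher and 32 of the 36 lower genes. Some, chosen after their values were seen, are known from tendon and joints. Scx, a transcription factor of tendon, had a log2 fold change of 1.43 (adjusted p = 4.9e-06) and Prg4, lubricin, 1.82 (3.2e-06). Scx stood at 210.1, 231, 254 and 192 in Ctrl + AngII libraries, against 78.4, 85.9, 77.0 and 84.8 in Ctrl libraries.

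Serpina3n, a serine protease inhibitor, stood at 2883, 2439, 4704 and 2398 in Ctrl + AngII libraries, against 396, 577, 1238 and 619 in Ctrl libraries (log2 fold change 2.20, adjusted p = 4.4e-04). Serpina3n has close paralogs, so its reads could be split. Tfrc, the transferrin receptor, had 1.14 (7.9e-04), Tnfrsf12a, the receptor of the cytokine TWEAK, 1.44 (2.4e-05), and Nmrk2, a nicotinamide riboside kinase of muscle, 1.46 (0.015). Dio2, the enzyme that activates thyroid hormone, had 2.05 (6.9e-05) and Star, a cholesterol transfer protein, 2.11 (3.5e-05).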
